A study of Homo sapiens with 2 samples.

Results

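The genes described here encode the proteins of the mitochondrial ribosome, measured in H6c7, a line of human pancreatic duct epithelium, and in a derivative of it that carries an introduced K-ras oncogene. A gene belonged to the set when a probe set of the Affymetrix U133A array named it alone and its symbol was MRPL or MRPS followed by a number. These were 51 of the 11963 genes with such a probe set, 31 MRPL genes of the large subunit and 20 MRPS genes of the small subunit, read by 64 probe sets. RefSeq holds 77 protein-coding genes with such symbols, 49 MRPL and 28 MRPS. The parental group was 1 array of H6c7 cells and the K-ras group 1 array of the oncogene-carrying cells. Both share the papillomavirus genes with which H6c7 was immortalised. The labels name no vector control and do not say whether the oncogene-carrying cells are pooled or clonal. Each group has 1 array, which leaves replicate error unknown, so no difference could be tested.

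The mitochondrial ribosome translates the few proteins that mitochondrial DNA encodes, all of them subunits of the respiratory chain and ATP synthase. Its ribosomal RNAs come from mitochondrial DNA, while each of its proteins is encoded in the nucleus, made in the cytosol and imported. Many of these proteins have bacterial homologues, and others are found in mitochondria alone. The large subunit forms peptide bonds, and the small subunit binds the messenger RNA and reads its codons. Members with a bacterial homologue mostly carry its number. MRPS18A and MRPS30 sit in the large subunit in spite of their names.

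Promoters of 45 members, 250 bases before to 50 after the gene start, were found in RefSeq (GRCh38.p14). The letters CCGGAAG, on either strand, are the core that ETS factors such as GABPA recognise. GABPA is known as a regulator of nuclear genes for mitochondrial proteins. These letters were present in 19 of the 45 member promoters (42.2%), in 1387 of 6333 other measured genes with a promoter (21.9%) and in 3321 of 27305 genes overall (12.2%). The NRF1 core with 1 free base in its middle, searched on both strands in the same way, was present in 4 of 45 members (8.89%), 13.5% of other measured genes and 6.98% of all genes. The full NRF1 core, a stricter form of the same letters, was present in 1 member, MRPL17 (2.22%), in 2.72% of other measured genes and in 1.52% of all genes. The next 4 promoters belong to the members with a promoter entry that stood at the ends of the ratios with and without the ETS letters, which are in capitals. They lie at chr16:370489-370788 on the minus strand (MRPL28), chr17:81703117-81703416 on the plus strand (MRPL12), chr13:40771141-40771440 on the minus strand (MRPS31) and chr2:75646533-75646832 on the plus strand (MRPL19).
MRPL28: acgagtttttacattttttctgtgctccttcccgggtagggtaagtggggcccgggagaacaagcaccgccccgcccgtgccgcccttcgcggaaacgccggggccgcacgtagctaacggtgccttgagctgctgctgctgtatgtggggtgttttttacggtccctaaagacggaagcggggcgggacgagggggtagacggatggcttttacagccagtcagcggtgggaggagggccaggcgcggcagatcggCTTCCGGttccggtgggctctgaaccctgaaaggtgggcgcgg
MRPL12: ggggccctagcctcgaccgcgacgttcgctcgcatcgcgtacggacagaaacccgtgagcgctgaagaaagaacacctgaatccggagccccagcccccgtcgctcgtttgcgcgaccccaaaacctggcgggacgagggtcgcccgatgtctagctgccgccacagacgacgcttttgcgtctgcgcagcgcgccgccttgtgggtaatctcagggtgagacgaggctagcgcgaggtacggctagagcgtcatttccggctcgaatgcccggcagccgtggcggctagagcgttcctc
MRPS31: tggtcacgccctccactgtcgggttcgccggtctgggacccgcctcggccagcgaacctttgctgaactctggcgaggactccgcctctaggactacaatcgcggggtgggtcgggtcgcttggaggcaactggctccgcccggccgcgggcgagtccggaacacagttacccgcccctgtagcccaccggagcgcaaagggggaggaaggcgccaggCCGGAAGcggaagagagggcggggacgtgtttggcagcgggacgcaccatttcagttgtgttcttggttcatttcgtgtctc
MRPL19: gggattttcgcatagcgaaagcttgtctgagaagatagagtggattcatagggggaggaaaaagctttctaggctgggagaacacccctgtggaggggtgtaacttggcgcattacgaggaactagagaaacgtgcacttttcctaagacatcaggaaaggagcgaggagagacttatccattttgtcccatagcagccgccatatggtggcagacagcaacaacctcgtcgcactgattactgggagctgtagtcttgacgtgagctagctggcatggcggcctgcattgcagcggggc
MRPL28 and MRPL12 were among the highest ratios of the set and MRPS31 and MRPL19 among the lowest, so each direction is shown once with the letters and once without. The median log2 ratio, K-ras over parental, was -0.41 over the 18 members with the letters and signals on both arrays and 0.08 over the 25 without them. In the large subunit the medians were -0.63 over 10 members with and 0.16 over 15 without the letters, and in the small subunit -0.02 over 8 and 0.01 over 10. Those with the letters held 1 gene at least 2-fold higher (MRPL28) and 1 at least 2-fold lower (MRPS31), and those without them 0 higher and 3 lower. MRPL2, the highest ratio of the set, and some of the lower members, MRPS28 among them, had no promoter entry and are in neither count. Among other genes the medians were 0.12 over 1182 with the letters, of which 145 were lower and 119 higher, and 0.09 over 3814 without them, of which 537 were lower and 423 higher. A match is a description of the sequence, and binding was not measured.

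Signals are linear array intensities, and the median signal of all non-control probe sets was 43.9 on the parental and 46.9 on the K-ras array. A signal under 46.9, the higher of these medians, was treated as too dim to order, and this value is called the floor below. Many genes differed between the 2 arrays. Of 7693 measured genes, 1109 (14.4%) were at least 2-fold lower and 767 (9.97%) at least 2-fold higher in the K-ras line, and over the 5996 genes with both signals at or above the floor the median log2 ratio was 0.10. Log2 ratios from different probe sets of 1 gene had a pooled standard deviation of 0.46 over 1671 genes, a technical spread. The signal at the 3' end over that at the 5' end, a sign of RNA integrity, was 0.817 on the parental and 0.888 on the K-ras array for GAPDH, and 1.28 and 1.10 for ACTB. The duct epithelium markers KRT7, KRT8, KRT18, KRT19, EPCAM, CDH1 and SOX9 were above the floor on both arrays and CFTR on neither. Of these 7, KRT19, EPCAM and SOX9 were 2.74-fold, 2.08-fold and 2.05-fold lower in the K-ras line and none was at least 2-fold higher. KRT7 and CDH1 were 1.25-fold and 1.02-fold lower, and KRT18 and KRT8 were 1.30-fold and 1.84-fold higher, so the markers went both ways. Of 5 fibroblast markers, COL1A1 (131 and 94.6) and DCN (59.1 and 84.3) were above it on both, COL1A2 on the K-ras array alone (51.4), and COL3A1 and LUM on neither. Of 3 leukocyte markers PTPRC and CD14 were below it on both and CD3E had 11.2 and 78.2. The part of these markers and of RNA integrity in the values below was not tested. Fewer cells with a transcript and less of it per cell cannot be told apart in such bulk RNA.

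The mitochondrial ribosome genes went both ways in the K-ras line, and neither subunit moved as a block. In both lines 49 of the 51 genes exceeded the floor. MRPL41 (4.30 and 16.2) and MRPS18C (9.40 and 17.4) were below it on both and were not measured. Among the 49, 7 were at least 2-fold lower (14.3%), against a background of 14.4% of measured genes, and 2 at least 2-fold higher (4.08%), against 9.97%. At this threshold and scaling the share lower was thus that of genes at large. At 1.5-fold 17 of the 49 were lower and 6 higher, beside 1860 lower and 1845 higher of 7693 genes. The log2 ratio was below 0 in 25 members and above 0 in 24, while 45.4% of the 5996 genes were below 0. When log2 ratios were instead centred on the median probe set, which moved the median of all genes from 0.10 to -0.13, 13 members were at least 2-fold lower and 1 higher, beside 1501 lower and 407 higher of 7537 genes measured in that setting.

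**Figure D1:**
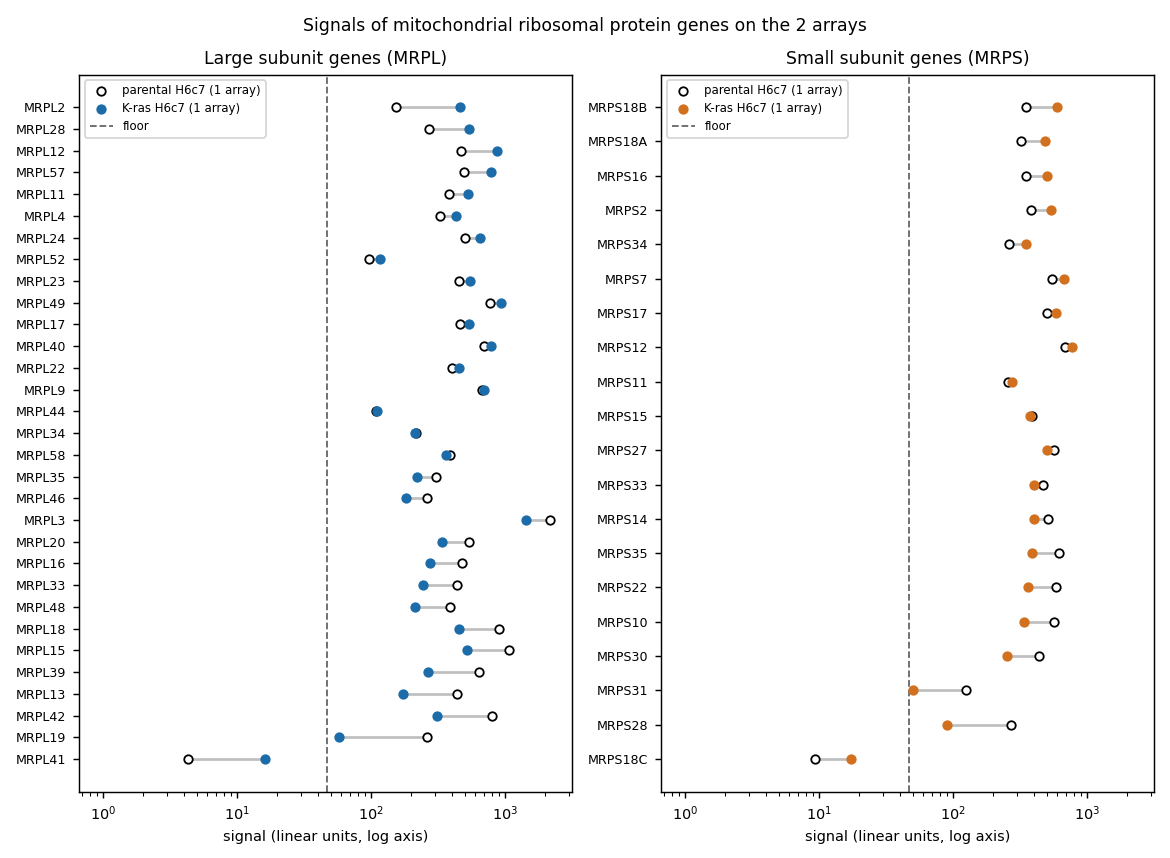
Signal of each of the 31 large subunit genes (left) and 20 small subunit genes (right) on the parental array (open circles) and the K-ras array (filled circles), on a log axis, ordered by log2 ratio with the 2 unmeasured genes at the bottom. The dashed line is the floor of 46.9. MRPL41 and MRPS18C lie below it on both arrays, and MRPL19 and MRPS31 come close to it on the K-ras array alone.

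The medians of the subunits were close in the scaling and probe sets used here. The 30 measured MRPL genes had a median log2 ratio of -0.01, with 5 at least 2-fold lower (16.7%) and 2 higher (6.67%). The 19 measured MRPS genes had a median of -0.05, with 2 lower (10.5%) and none higher. For all measured genes the shares were 14.4% lower and 9.97% higher. The medians differed by 0.04, small beside the standard deviation of 0.82 between MRPL genes and 0.66 between MRPS genes. The difference turned under 4 of 12 alternative settings. With _x_at and _s_at probe sets left out it was -0.65, and the MRPL median was -0.34 and the MRPS median 0.31 over 21 genes in all. Between the first and the third quartile the MRPL genes ran from -0.82 to 0.28 and that of the MRPS genes from -0.68 to 0.37. The ranges overlapped, but the lowest ratio (MRPL19) and the 3 highest (MRPL2, MRPL28 and MRPL12) were of the large subunit. Both medians lay below that of all genes, by 0.12 and 0.16. Counting MRPS18A and MRPS30 with the large subunit, where they sit, left medians of -0.01 over 32 genes and -0.05 over 17.

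Of the large subunit, MRPL19, the counterpart of bacterial L19 at the face between the subunits, had the lowest ratio of the set. Its signal was 262 in the parental and 58.0 in the K-ras line, 4.51-fold lower in the latter. The K-ras signal is close to the floor, so the ratio is close to a bound. MRPL42, a protein of mitochondria alone, had 805 and 311 (2.59-fold lower). MRPL13, of the conserved core, had 436 and 173 (2.51-fold lower). MRPL39, a relative of threonyl-tRNA synthetase near the exit of the peptide tunnel, had 640.3 and 266 (2.41-fold lower). MRPL15, another core protein, had 1077 and 518 (2.08-fold lower). These K-ras signals, apart from that of MRPL19, were well above the floor. MRPL18, which helps to hold the RNA of the central protuberance, stood just inside the 2-fold line with 898 and 453 (1.98-fold lower).

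At the other end of the large subunit stood MRPL2, which lies next to the peptidyl transferase centre. Its signal was 153 in the parental and 461 in the K-ras line, 3.01-fold higher, and its log2 ratio of 1.59 exceeded that of 97.5% of the 5996 genes. MRPL28 had 270.2 and 540.5, a ratio that only just reached 2-fold. MRPL12, the stalk protein that is also known to bind the mitochondrial RNA polymerase, had 473 and 873 (1.85-fold higher). MRPL57, a small protein without a bacterial counterpart, had 495 and 779 (1.58-fold). MRPL11, at the base of the stalk, had 380.4 and 529 (1.39-fold). The remaining 19 measured MRPL genes had log2 ratios from -0.87 (MRPL48) to 0.40 (MRPL4). They included MRPL3, a core protein near the peptidyl transferase centre, with 2162 and 1434, and MRPL58, a peptidyl-tRNA hydrolase that became a ribosomal protein, with 385 and 363.

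In the small subunit the genes at least 2-fold lower were MRPS28 and MRPS31. MRPS28, the counterpart of part of bacterial S1, had a signal of 269 in the parental and 90.7 in the K-ras line, 2.97-fold lower. MRPS31, a protein of mitochondria alone, had 124 and 50.2, 2.47-fold lower and close to the floor in the K-ras line. Its other probe set gave 123 and 45.1, a bound at a log2 ratio of -1.39 beside -1.31. Next came MRPS30, which sits in the large subunit, with 437 and 252, MRPS10 of the head with 571 and 340.0, and MRPS22 with 587 and 362 on a probe set ending in _x_at, a kind that can pick up related transcripts. These last 3 were between 1.62-fold and 1.73-fold lower.

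The highest ratios of the small subunit stayed under 2-fold. MRPS18B had 353 and 599 (1.70-fold higher) and its paralogue MRPS18A, which sits in the large subunit, 319 and 481 (1.51-fold). MRPS16 had 352 and 505, MRPS2 had 383 and 536, and MRPS34 had 262 and 353, which are 1.34-fold to 1.44-fold higher. MRPS2, MRPS16 and MRPS18B have bacterial relatives, and MRPS34 has none. The other 9 measured MRPS genes had log2 ratios from -0.66 (MRPS35) to 0.31 (MRPS7).

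**Figure D2:**
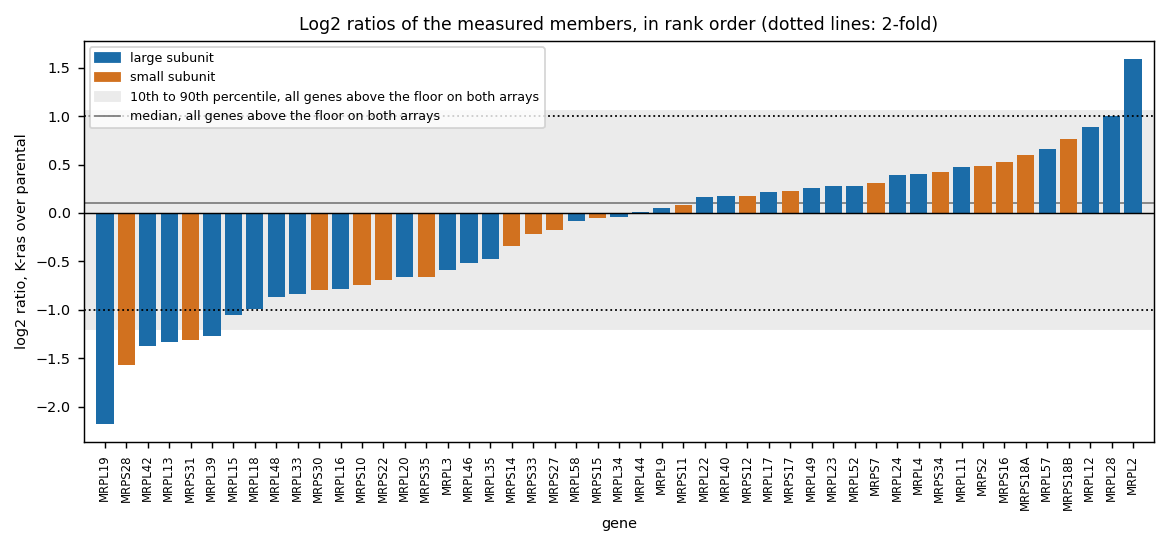
Log2 ratio, K-ras over parental, of each of the 49 measured members in rank order, with large subunit genes in blue and small subunit genes in orange. The grey band spans the 10th to 90th percentile of the 5996 genes (-1.20 to 1.05) and the dotted lines mark 2-fold. Both colours run through the whole order, with MRPL19 (-2.17) and MRPL2 (1.59) at the ends.

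Members with a second probe set showed how far probe sets of 1 gene differed on the same 2 arrays. This spread holds no error between cultures or arrays, which remains unknown. Where at least 2 probe sets of a member exceeded the floor in both lines, as for 6 members, log2 ratios had a pooled standard deviation of 0.50 within a gene. MRPS18A gave log2 ratios of 0.59 and 1.22, the latter past 2-fold on signals of 240.0 and 560.0. MRPS18B gave 0.76 and 0.42. MRPL9, of the conserved core, gave 0.05 and 0.63. MRPS12, the decoding-site protein, gave 0.18 and 0.52, and its other 2 probe sets, dim in the parental line, gave bounds of 0.35 and 0.50. These genes were on the same side in each probe set. MRPL57 did not keep its side, with 0.66 on its bright probe set, 0.66 on one with signals of 49.4 and 77.8, and -0.48 on an _x_at probe set with 89.5 and 64.0. MRPS30 gave -0.79 on its bright probe set and 0.09 on a dim one with signals of 69.2 and 73.7. The second probe sets of MRPL20, MRPS11 and MRPS14 were below the floor on both arrays.

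Log2 ratios are given here by structural neighbourhood within the ribosome. Each neighbourhood had 6 or fewer measured members, and differences between them were not tested. Of the central protuberance, which holds the RNA that takes the place of the 5S RNA of bacteria, 6 members were measured and none passed 2-fold. MRPL18, MRPL48, MRPS30 and MRPL46 had log2 ratios of -0.99, -0.87, -0.79 and -0.51, and MRPL40 and MRPL52 of 0.18 and 0.28. Around the exit of the peptide tunnel MRPL39 was lower (-1.27), while MRPL44 (0.01, on an _x_at probe set), MRPL22 (0.16), MRPL23 (0.28) and MRPL24 (0.39) stayed near or above 0. The stalk proteins MRPL11 and MRPL12, which recruit the elongation factors, had 0.48 and 0.88. The proteins of the decoding site and the mRNA path, MRPS11, MRPS12 and MRPS7, had 0.08, 0.18 and 0.31.

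Members with a bacterial homologue and those found in mitochondria alone overlapped widely. The median log2 ratio was 0.12 over 32 measured members with a homologue, 4 of them at least 2-fold lower (12.5%) and 2 higher (6.25%). It was -0.22 over 17 without one, with 3 lower (17.6%) and 0 higher. Of all measured genes 14.4% were lower and 9.97% higher. In the small subunit 6 of 7 members without a homologue had a ratio below 0, with MRPS34 the exception, against 4 of 12 with one. In the large subunit it was 5 of 10 against 10 of 20. Among all genes with both signals at or above the floor 45.4% had a ratio below 0.

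Members with long genes had lower ratios than members with short genes, a relation looked for after the values were seen. The 7 genes at least 2-fold lower spanned 13.3 to 112 kb of the genome, with a median of 42.1 kb, and MRPL28 and MRPL2 spanned 3.57 and 5.83 kb. Of the 24 measured members that span less than 8.59 kb, the median of the set, 19 had a ratio above 0, 2 were at least 2-fold higher, none was lower, and the median log2 ratio was 0.29. Of the 25 longer members 20 had a ratio below 0, 7 were at least 2-fold lower, none was higher, and the median was -0.59. The same held in each subunit. The medians were 0.27 and -0.73 for shorter and longer MRPL genes, and 0.37 and -0.34 for shorter and longer MRPS genes. Other genes showed the trend in a weaker form. Split at the same span, their medians were 0.36 over 1057 shorter and 0.03 over 4888 longer genes, with 4.73% and 16.4% of the measured genes at least 2-fold lower and 14.2% and 9.15% at least 2-fold higher. The members' shares higher were 8.33% and 0.

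As a description across genes, Spearman's rho between log2 ratio and span was -0.61 over the 49 members (Pearson's r with log2 span -0.56). It was -0.60 over MRPL genes, -0.57 over MRPS genes and -0.22 over 5945 other genes. Without MRPS27 and MRPS28, the spans farthest from the median, it was -0.59 over 47 members. It was -0.43 over 62 subunits of oxidative phosphorylation and -0.18 over 55 cytosolic ribosomal proteins, whose genes span 1.33 to 27.7 kb. All points come from the same 2 arrays and genes are not replicates, so these values carry no p. Exceptions were MRPL23, which spans 67.6 kb with a ratio of 0.28, MRPS27, which spans 101 kb with -0.17, and MRPL16, which spans 4.64 kb with -0.78.

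**Figure D3:**
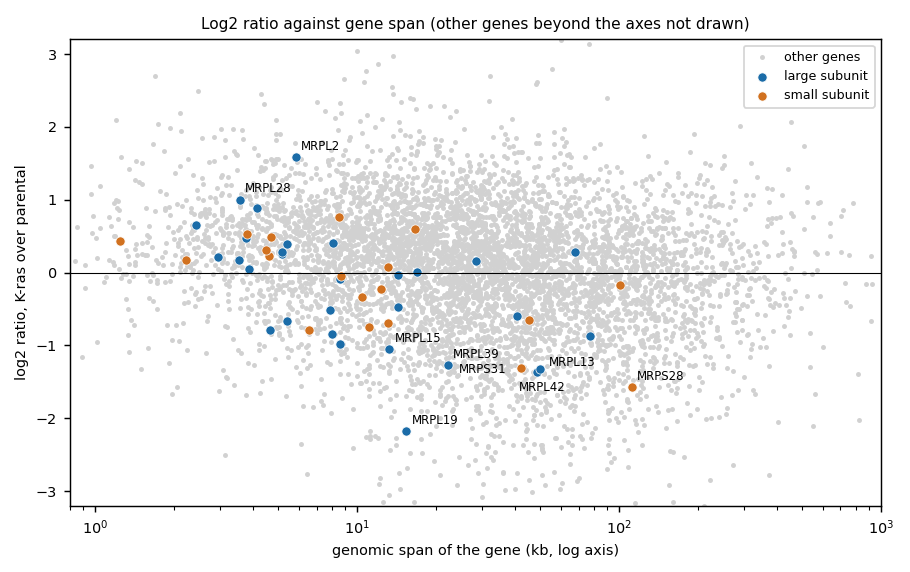
Log2 ratio, K-ras over parental, against the genomic span of the gene in kb on a log axis, for large subunit genes (blue), small subunit genes (orange) and other genes (grey). The members at least 2-fold lower, which are named, all span more than 13 kb, and the 2 at least 2-fold higher span less than 6 kb.

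After the values were seen, the 7 lower members were also placed on chromosomes. MRPS28, MRPL13 and MRPL15 lie on chromosome 8 and are the 3 members there, and MRPL19, MRPL42, MRPS31 and MRPL39 lie on chromosomes 2, 12, 13 and 21. Of 267 measured genes of chromosome 8, 56 were at least 2-fold lower (20.97%) and 20 higher (7.49%). The shares of all measured genes were 14.4% and 9.97%, and the difference from them was not tested. Without these 3 members rho with span was -0.56 over 46.

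Genes that serve the same ribosome were set beside it, from lists drawn up with earlier results of these data known. Proteins of the mitochondrial ribosome under other symbols went both ways. PTCD3, a small subunit protein with RNA-binding repeats, had 220.4 and 93.3 (2.36-fold lower), DAP3 a log2 ratio of 0.31, GADD45GIP1 0.65 and NDUFAB1, an acyl carrier protein, -0.10. Of 15 measured assembly factors 2 were at least 2-fold lower (13.3%, near the background of 14.4%) and 0 higher. Their median was -0.16. The lower ones were MTERF3, which acts on mitochondrial transcription and ribosome assembly, with 242 and 74.5, and FASTKD2, an RNA-binding protein of large subunit assembly, with 251 and 82.7. The methyltransferases MRM3 and MRM1 stood highest, at 0.60 and 0.77, and MRM1 was near the floor in the parental line.

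The list of mitochondrial translation factors, which also held LRPPRC and OXA1L, had a lower median than the ribosome. Of 7 measured, 4 were at least 2-fold lower (57.1%, against 14.4% of all measured genes) and 0 higher. LRPPRC and OXA1L were among the 4. The median was -1.03 on the log2 scale, which is the value of OXA1L. The initiation factor MTIF2 had a signal of 502 in the parental and 48.7 in the K-ras line. The K-ras signal of MTIF2 is close to the floor, so its ratio is close to a bound. LRPPRC, which keeps mitochondrial messenger RNAs stable, had 726 and 72.9. TSFM, which recharges the elongation factor, had 193 and 91.8, and OXA1L, which inserts new proteins into the inner membrane, had 449 and 219.8. The elongation factor TUFM itself went the other way, with 2052 and 3036, a log2 ratio of 0.57. Of 13 measured genes of mitochondrial transcription and its regulation 1 was at least 2-fold lower (7.69%) and 2 higher (15.4%). Of all measured genes 14.4% were lower and 9.97% higher. The median of the 13 was 0.02. TFAM, which packages mitochondrial DNA and helps to start its transcription, had 233 and 62.5 on an _x_at probe set. The RNA polymerase POLRMT had 224 and 487, and the nuclear receptor ESRRA 165 and 480.0. NRF1 had a log2 ratio of 0.61, and GABPA was below the floor on both arrays.

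The largest related sets, the cytosolic ribosome and oxidative phosphorylation, had medians above the 0.10 of all genes. Their shares at least 2-fold apart were under those of all measured genes, 14.4% lower and 9.97% higher. Cytosolic ribosomal proteins had a median log2 ratio of 0.21 over 55 genes. Of 57 measured none was at least 2-fold lower and 1 higher (1.75%), RPL12 at 1.05 on an _x_at probe set. They were bright, with a median parental signal of 5367 against 205 for all genes. Nuclear-encoded subunits of oxidative phosphorylation had a median of 0.23 over 62 genes, and of 64 measured 3 (4.69%) were lower and 4 (6.25%) higher. The lowest there were NDUFA5 (at least 5.73-fold) and NDUFS1 (3.24-fold), and the highest were UQCRC1 (2.45-fold) and NDUFV1 (2.29-fold). These differences between sets were not tested, since each set was read from the same pair of arrays.

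**Figure D4:**
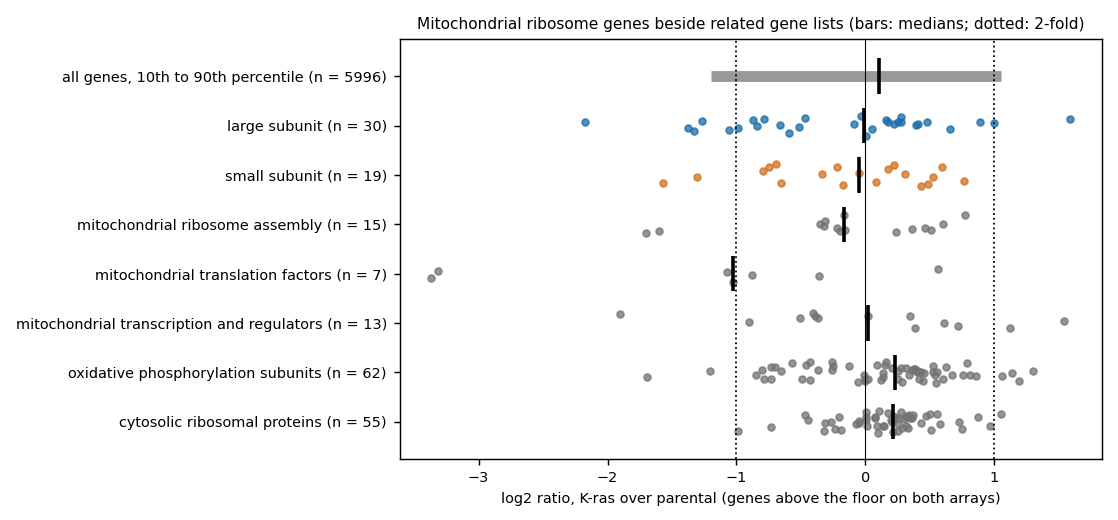
Log2 ratio, K-ras over parental, of single genes (points) in the large and small subunit and in 5 related gene lists, for genes with both signals at or above the floor. Vertical bars are medians, dotted lines mark 2-fold, and the grey bar at the top is the 10th to 90th percentile of all 5996 genes. The subunits have medians of -0.01 and -0.05, the translation factor list, which includes LRPPRC and OXA1L, -1.03, and cytosolic ribosomal proteins 0.21.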

How the data were processed

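Total RNA of each line was labelled by the standard Affymetrix procedure and hybridised to 1 U133A array, per the labels. The authors deposited 1 linear intensity for each of 22283 probe sets and array, from 0.1 to 13801.2. The software that made them was not given in the sources used here; their trimmed means, with 2% removed at each end, were 150.06 on both arrays. The values were therefore treated as scaled by the authors, and the remaining difference was removed. The platform annotation gives 19065 non-control probe sets 1 gene symbol, 1043 several and 2107 none. Each gene was read from its probe set with the highest mean log2 signal. A gene below the floor on 1 array has a bound against it, and a gene below it on both is not measured. No test was possible with 1 array per group, and the number of arrays limits precision. Genes were named by these rules: each member at least 2-fold apart, the 5 highest and 5 lowest of each subunit, members with several probe sets, the members that sit in the other subunit, and up to 4 of each comparison list; further members are named where a group is described. Spans come from RefSeq on GRCh38.p14, to which all 51 members matched by gene number. The members and lists were chosen with earlier results of these data known. Settings tried were 5 scalings, 4 treatments of the floor, 2 choices of probe set, the subunit by position, and thresholds of 1.5-fold and 3-fold. The script was tested on simulated data. Tools were pandas 2.3.3 and numpy 2.4.6 on Python 3.11.15, with scipy 1.17.1 for correlations, statsmodels 0.14.6 for loess and matplotlib 3.10.9 for figures.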

Additional observations from a re-analysis of the deposited data

How the results depend on the processing

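The sign of the medians of both subunits, and that of their difference, depended on the setting. The MRPL median was 0.070 with quantile normalization, 0.079 with scaling on 100 maintenance probe sets and 0.0078 with no floor, and it ranged down to -0.29 with median centring and -0.34 without _x_at and _s_at probe sets. The MRPS median was 0.0021, 0.041 and 0.013 under these, 0.080 with the floor at the 70th percentile and 0.31 without _x_at and _s_at probe sets, and it ranged down to -0.26 with median centring. The difference, MRPL minus MRPS, was -0.028 with median centring, -0.12 with the floor at the 70th percentile, -0.0053 with no floor and -0.65 without _x_at and _s_at probe sets, where only 21 members were left. Against the median of all genes under the same setting, the MRPL median was lower in 12 of 12 settings and the MRPS median in 11 of 12, the exception being the setting without _x_at and _s_at probe sets (0.21 higher). Median centring gave 9 MRPL and 4 MRPS genes lower, 1 MRPL gene higher, and 1501 lower and 407 higher of 7537 measured genes. Loess gave 6 MRPL and 2 MRPS genes lower and 1 MRPL gene higher, against 1161 and 728 of 7541 genes. With the floor as a pseudocount 4 MRPL and 1 MRPS genes were lower and 1 MRPL gene higher. Of 7693 genes 837 were then lower and 469 higher. With the floor at the 30th percentile 7 members were lower and 2 higher, against 1411 and 1363 of 9794 genes. At the 70th percentile 5 MRPL and 1 MRPS genes were lower and 2 MRPL genes higher, against 632 and 451 of 4987 genes. With no floor 7 of 51 members were lower and 3 higher, against 1797 and 2428 of 11963 genes. Without _x_at and _s_at probe sets 2 MRPL and 1 MRPS genes were lower, and 1 MRPL and 1 MRPS gene higher. Of 4656 genes measured there 721 were lower and 460 higher. At 1.5-fold 11 MRPL and 6 MRPS genes were lower and 4 and 2 higher, against 1860 and 1845 of 7693 genes. At 3-fold 1 MRPL and 0 MRPS genes were lower and 1 MRPL gene higher, against 480 and 185 of them. The direction in which the counts change with the threshold follows from how a threshold is built. The cause of the other changes, the turned signs of the medians among them, was not tested. Of the 9 members at least 2-fold apart, MRPL2, MRPL13, MRPL19, MRPL39, MRPL42 and MRPS28 stayed so in each setting that measured them. MRPL15 did in 9 of 11 and MRPL28 in 7 of 10. MRPS31 did in 9 of 11, and its log2 ratio was -0.028 with the floor at the 70th percentile and -0.82 with the floor as a pseudocount. No paired analysis was possible because each group has 1 array. Signal over background limits MRPL19 and MRPS31 most.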

Other observations

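A further probe set carries an MRPS symbol beside another gene's, MRPS31P5, a pseudogene of MRPS31, and THSD1, and so belongs to no member. Its signal was 62.9 on the parental and 54.9 on the K-ras array, a log2 ratio of -0.20, against -1.31 for the MRPS31 probe set used.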
